A study of Mus musculus with 2 samples.

Results

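The respiratory chain and ATP synthase genes measured here are the nuclear genes whose array symbols begin with Nduf, Sdhaf, Uqcr, Cox4 to Cox8 or Atp5, together with the Sdh subunits, cytochrome c1 (Cyc1) and cytochrome c (Cycs). The rule used symbols alone and no measured value. It found 91 of the 16593 named genes on the array, with 114 of 25697 probes. Of these 91 genes, 85 were detected on both arrays at a detection p under 0.01, 1 on the vehicle array alone and 5 on neither. Tibialis anterior muscle, a fast muscle of the lower leg, came from C57/BL6 mice that received vehicle or DHT under the skin at 10 days of age, and was taken 24 h later. DHT is read here as dihydrotestosterone, a potent androgen. The design held 1 array per group, and the labels give neither the sex of the mice nor the number of animals behind an array. All differences therefore describe these 2 arrays, with no replicate error and no test between the conditions.

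The respiratory chain passes electrons from NADH and succinate to oxygen and pumps protons across the inner mitochondrial membrane, and ATP synthase uses the returning protons to make ATP. Complex I oxidises NADH, complex II succinate and complex III ubiquinol. Cytochrome c carries electrons on to complex IV, cytochrome c oxidase, which reduces oxygen. Most subunits are encoded in the nucleus and a small set in mitochondrial DNA, and several complex IV subunits exist as a form of heart and skeletal muscle and a form of other tissues. The genes of mitochondrial DNA were not analysed here. The flavoprotein Sdha was not analysed either.

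The muscle markers Acta1, Ckm, Mb, Des, Tnnt3, Myh4, Myh1 and Mylpf were detected on both arrays, with a median log2 difference of 0.01 over these 8 genes. Their differences ran from -0.47 for Myh1 to 0.75 for Mb. Of the 8, 4 were above 40000 on both arrays, where differences are compressed, so the median is no measure of equal muscle content. The cardiac markers Nppa, Nppb, Tnni3 and Myl7 were detected on neither array. The cardiac myosin gene Myh6 was detected on both and was 2.04-fold lower on the DHT array. Each difference given is the log2 value after DHT minus that after vehicle, with background correction and quantile normalization by limma's neqc, from the detected probe with the highest mean. Total deposited signal, in arbitrary brightness units, summed to 2.99e+07 after vehicle and 2.65e+07 after DHT, and the 114 probes made up 7.05% and 7.79% of it. Without any normalization the median difference of all 8815 detected named genes was therefore -0.21, against -0.01 with it. Where several probes read 1 gene, their log2 differences had a pooled SD of 0.26 over 1967 genes and of 0.16 over the 13 respiratory chain genes with several probes detected on both arrays. The first of these is called the probe SD below. It measures agreement within the arrays, not between animals.

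The respiratory chain and ATP synthase genes mostly differed little between the arrays, with 8 exceptions in complexes I and IV, ATP synthase and the assembly factors. At 1.5-fold, 5 of the 86 detected genes were higher on the DHT array and 3 lower. That is 5.81% higher, where 13.4% of all detected named genes were higher, and 3.49% lower, where 15.8% were lower. The higher genes were Ndufa4, Ndufb4, Ndufaf5, Sdhaf3 and Atp5k, and the lower ones Cox4i2, Cox6b2 and Cox7a2. Without background correction Ndufa4, Ndufb4, Ndufaf5 and Cox7a2 remained past 1.5-fold, which is 3 higher and 1 lower, beside 6.75% and 8.43% of all genes. In the deposited signals 28 of the 86 were brighter after DHT and 58 dimmer, with 1 higher and 5 lower at 1.5-fold when nothing was normalized, beside 3.2% and 16.8%. Of the 86 genes, 59 lay within the probe SD of 0, or 68.6%, against 39.4% of all detected named genes, without matching for signal. Their median was 0.09, and 59 had a difference above 0, again 68.6%, where 49.4% of all genes did.

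**Figure D1:**
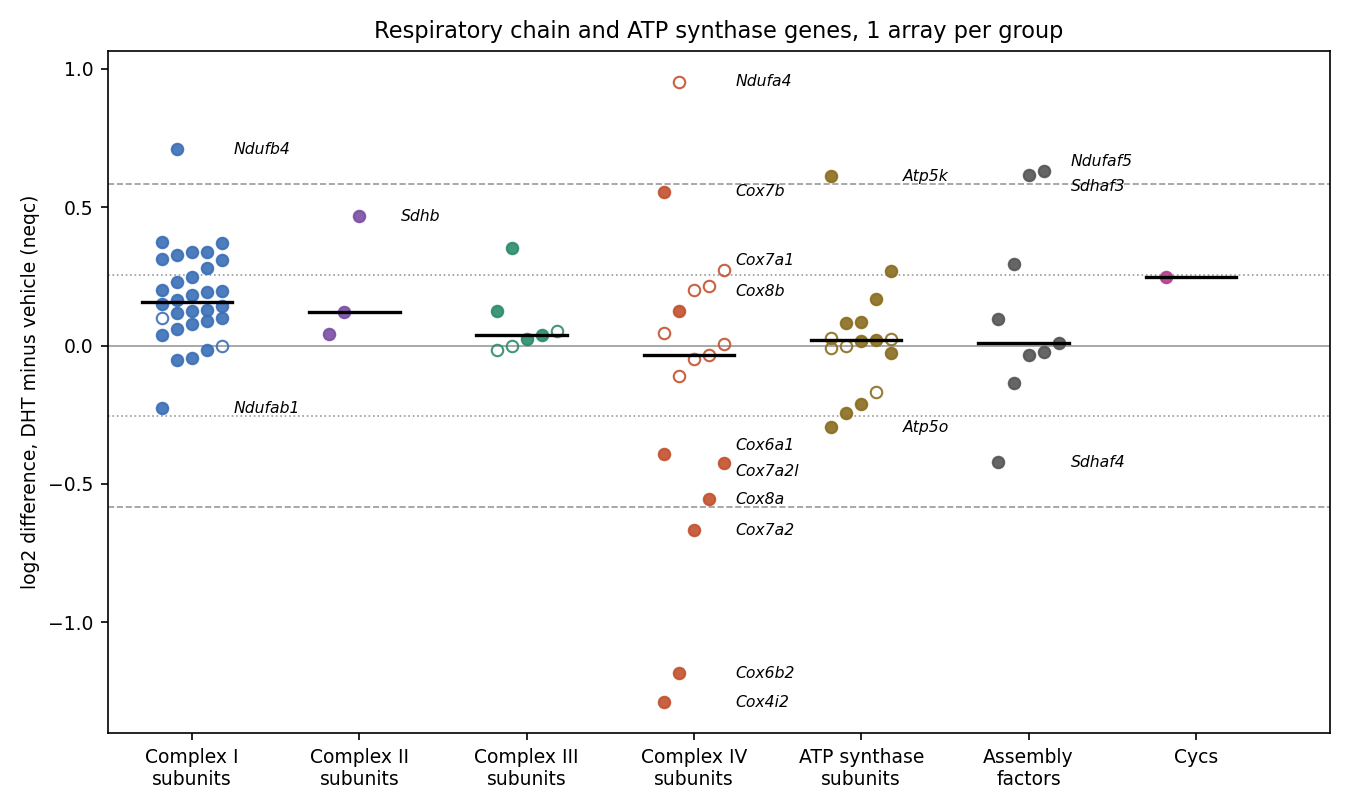
Log2 difference, DHT minus vehicle, of each detected gene (points) by complex, with 1 array per group and no error bars. Black lines are group medians, open points are genes above 40000 on at least 1 array, dotted lines mark the probe SD of 0.26 and dashed lines 1.5-fold. The single pseudogene probe is left out, and Cox4i2 was not well above background after DHT. Complex I lies mostly above 0, and complex IV has the widest range, from -1.29 to 0.95.

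These genes are bright, and bright probes differed less between the arrays in general, so the counts were also read within ranges of signal. Between mean signals of 10000 and 40000, 1 of 34 respiratory chain genes was 1.5-fold higher and 0 lower, against 9.51% and 10.7% of all 347 genes in that range. The middle part of the 34 differences, between their quartiles, ran from 0.04 to 0.27, and that of the 313 other genes from -0.28 to 0.24. Between 1000 and 10000, 3 of 27 were higher and 1 lower, where 10.6% and 12.5% of all 2958 genes were. Below 1000, 1 of 9 was higher and 2 lower, where the shares were 15.2% and 18.1% of 5444. The differences of Atp5k, Cox4i2 and Cox6b2 in that lowest range moved with the background correction, as given below. Shares within the probe SD were closer inside most ranges than over all genes. Below 1000 they were 44.4% of respiratory chain genes and 34.7% of the others, and between 1000 and 10000 55.6% and 45.5%. Between 10000 and 40000 they were 73.5% and 50.2%, and above 40000 93.8% and 76%.

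Complex I subunits, the Nduf genes other than Ndufa4 and the assembly factors, were slightly higher on the DHT array than genes in general. Of 32 detected subunits 27 had a difference above 0. Beyond the probe SD, 9 were higher and 0 lower, where 29.3% and 31.3% of all detected named genes were. The median was 0.16. It was 0.15 to 0.25 above the median of all genes under every normalization and filter tried, although without normalization between the arrays the median itself was -0.02. Between signals of 10000 and 40000, 17 of 19 subunits were above 0, with a median of 0.18, where the other genes of that range had a median of -0.01. Only Ndufb4 passed 1.5-fold.

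Ndufb4, an accessory subunit of the membrane arm, had a signal of 1416 after vehicle and 1877 after DHT, which gave a log2 difference of 0.71. Its neighbours in the same arm were less different, with signals of 4017 and 4440 for Ndufb2 (0.38) and 25316 and 27727 for Ndufb6 (0.28). The second Ndufb6 probe read 0.50. The 10 Ndufb genes had a median of 0.20, with 9 above 0, and the exception, Ndufb7, was at -0.04.

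Core subunits are those shared with the bacterial enzyme, and several of them hold its flavin and iron-sulfur clusters. Ndufs3, a core subunit of the peripheral arm, was brighter on the DHT array, at 17536 against 15457 (0.37), and so was Ndufs7, which holds the last cluster before ubiquinone, at 36230 against 34044 (0.23). Ndufv1, which binds NADH, had signals of 25209 and 24018 (0.12), Ndufv2 34802 and 33419 (0.10), and Ndufs8 13620 and 12411 (0.09). The 5 detected core subunits had a median of 0.12, and Ndufs3 alone was beyond the probe SD. The core subunit Ndufs1 was detected on neither array, with signals of 133 and 134, at the level of background.

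Among the Ndufa genes, Ndufa1 (28461 and 31974), Ndufa6 (24852 and 28569), Ndufa3 (20058 and 22137), Ndufa9 (20451 and 22452) and Ndufa5 (19233 and 20951) had differences between 0.31 and 0.34. All of these lay above the probe SD, and the second probe of Ndufa5 read 0.50. The 12 Ndufa genes had a median of 0.17. Ndufab1, the mitochondrial acyl carrier protein, had the most negative difference of complex I, with dim signals of 354 and 281 (-0.23). Ndufs4, read by 4 probes, ran from -0.20 to -0.02. Ndufv3 was the only member whose detected probes disagreed in sign beyond the probe SD. Its bright probes read 0.12 and 0.10, and its dim probe, at 272 and 204, read -0.59. A probe named for the pseudogene Ndufs5-ps, which near-identical transcripts of Ndufs5 could also bind, had signals of 11027 and 11068 (0.19).

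Genes of complexes II and III and cytochrome c mostly lay within the probe SD, and Sdhb and Uqcrb lay above it. Sdhb, the iron-sulfur subunit of succinate dehydrogenase, had signals of 8970 after vehicle and 10870 after DHT (0.47). Its other probes read 0.68 and 0.38, so all 3 were brighter on the DHT array after normalization. The membrane anchors Sdhc, at 17042 and 16520 (0.12), and Sdhd, at 2997 and 2610 (0.04), lay within the probe SD.

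In complex III, 7 of 9 genes were detected, with a median of 0.04. Uqcrb, a small subunit near the ubiquinone site, was the highest, at 11983 and 13472 (0.35). The core proteins Uqcrc1 (0.12) and Uqcrc2 (0.05), cytochrome c1, Cyc1 (16057 and 14429, 0.04), the hinge protein Uqcrh (0.03) and Uqcr11 (41667 and 38297, 0.00) were all within the probe SD, and so was the lowest, Uqcr10, at 64767 and 61378 (-0.02). The Rieske protein gene Uqcrfs1 and Uqcrq were detected on neither array. Cycs had signals of 1367 and 1331 (0.25), and its second probe read 0.29. Without normalization the Cycs difference was -0.04.

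Complex IV was the group with the widest spread, and its genes separated by the kind of subunit form and, with it, by signal level. In adult skeletal muscle the main forms are Cox4i1, Cox6a2, Cox6b1, Cox7a1 and Cox8b. All 6 detected other forms and relatives of these, Cox4i2, Cox6b2, Cox7a2, Cox8a, Cox7a2l and Cox6a1, were lower on the DHT array beyond the probe SD, as 31.3% of all detected named genes were. Their median was -0.61. The remaining 11 detected complex IV genes had a median of 0.12, with 3 above the probe SD and 0 below it. Each of the 6 was also lower under every normalization and filter that gave it a value. The grouping was made after these values were known and carries no test.

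The Cox7a family showed this most clearly. Cox7a1, the form of heart and skeletal muscle, had a signal of 45805 after vehicle and 51026 after DHT, a log2 difference of 0.27. Cox7a2, the form of other tissues, had 4238 and 2314, a difference of -0.67 or 1.59-fold lower. Cox7a2l, a relative of these forms, had 5218 and 3355 (-0.42). The muscle form was thus brighter on the DHT array and both others dimmer. Between Cox7a1 and Cox7a2 the gap in measured log2 differences was 0.94.

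In the Cox8 family the muscle form Cox8b had signals of 54071 and 60833 (0.22) and the form of other tissues, Cox8a, 11654 and 6970 (-0.55), with a gap of 0.77. In the Cox6a family the muscle form Cox6a2 had 68002 and 67170 (0.00). Its partner Cox6a1 had 5444 and 3635 (-0.39), and its second probe read -0.41. The gap was 0.40. All 3 muscle forms were above 40000 on both arrays, near the top of the scale, where differences are compressed, so the gaps rest mainly on the dimmer partners.

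**Figure D2:**
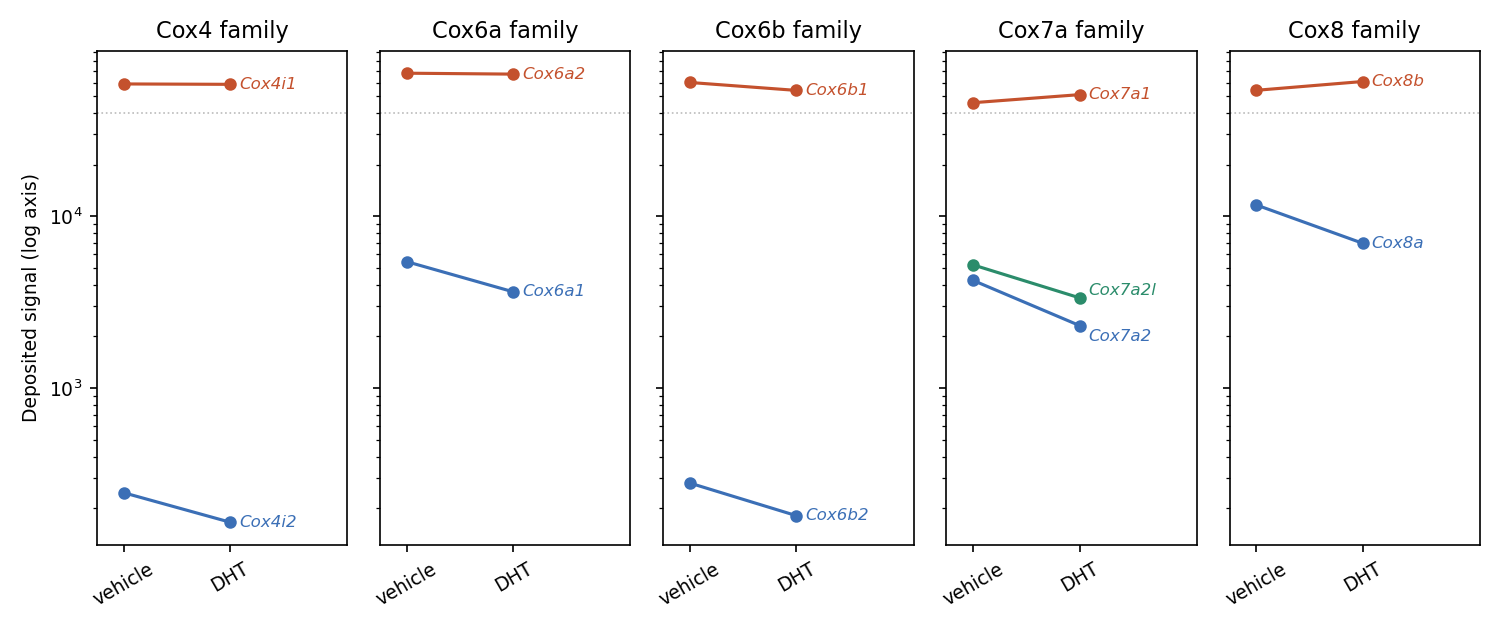
Deposited signal on a log axis for the forms of 5 complex IV subunit families on the vehicle and DHT arrays, 1 array each (points joined by lines). The dotted line marks 40000. The upper form of each family lies above 40000 on both arrays, where differences are compressed, and each lower form is dimmer on the DHT array, as in Cox7a2 from 4238 to 2314.

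The remaining pairs include forms that are rare in muscle. Cox4i2, the form of lung and of low oxygen, was detected after vehicle at 246 and after DHT, at 166, was not well above background. It was at least 1.80-fold lower on the background-corrected scale, a bound that does not hold for the uncorrected fold of 1.37. Its partner Cox4i1 had 58887 and 58582 (0.04). Cox6b2, the testis form, had 280 and 181, with a difference of -1.18 that was -0.48 without background correction. Neither array detected its second probe. Cox6b1 had 60054 and 54008 (-0.11). Cox7b2 and Cox8c, other testis forms, were detected on neither array, while Cox7b had 1545 and 1856 (0.55).

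Ndufa4, named for complex I and since assigned to complex IV, had the highest positive difference of all 86 genes. Its signal was 27048 after vehicle and 47449 after DHT, 1.94-fold higher (0.95). It was above 40000 on the DHT array alone, so the fold may be too small. Of the 181 genes with a mean signal of at least 20000, 10 were 1.5-fold higher, and 2 were at least as high as Ndufa4, itself included. The difference ran from 0.81 to 1.13 over the settings tried. The other complex IV genes, Cox5a (52286 and 57848, 0.20), Cox5b (58985 and 55117, -0.04), Cox6c (30564 and 30626, 0.12) and Cox7c (40663 and 35720, -0.05), lay within the probe SD.

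Markers of cells other than muscle fibres moved beside the 6 lower forms, and their counts at 1.5-fold stand beside 15.8% lower and 13.4% higher of all genes. Without background correction those shares were 8.43% and 6.75%. Of 10 fibroblast markers, all detected, 6 were 1.5-fold lower and 1 higher, and their summed signal was 111494 after vehicle and 68503 after DHT. The largest part of these sums came from Dcn (49857 and 45752), above 40000 on both arrays. Of 11 endothelial markers on the array, 10 were detected and 7 were lower, with sums of 25131 and 12136, and Kdr was detected on neither. Of 11 pericyte markers, all detected, 6 were lower and 1 higher (5 and 0 without background correction), with sums of 59124 and 31329. Most of these sums came from Acta2 (35025 and 13782) and Des (15220 and 11660), and Des is also among the muscle markers above. The 9 detected of 10 neutrophil markers included 8 lower (6 without background correction), with sums of 11550 and 3916 and Mmp8 not detected. All 7 macrophage markers were detected, 2 of them lower (0 without background correction), with sums of 7679 and 6255. In the opposite direction, 6 of the 10 detected of 12 adipocyte markers were higher (5 without background correction), with sums of 66421 and 73926. Fabp4 and Retn were not detected. Of 5 erythroid markers, all detected, 3 were higher and 1 lower (2 and 1 without background correction), with sums of 60981 and 69723. Most of these sums came from Hba-a1 (56698 and 66093), above 40000 on both arrays. The part of these cells in the complex IV differences was not tested. In whole muscle, fewer cells of a type and less RNA per cell cannot be told apart.

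Fibre type and brown fat markers were read because Cox6a2, Cox7a1 and Cox8b are also made by oxidative fibres and brown adipocytes. Their counts at 1.5-fold again stand beside 15.8% lower and 13.4% higher of all genes. Of 9 slow fibre genes 4 were lower (3 without background correction) and 0 higher, with sums of 144153 and 90715. Of 16 fast fibre genes 1 was higher and 0 lower, with sums of 755484 and 767178, and 10 of them exceeded 40000 on both arrays. Among 7 brown fat markers 4 were detected, with sums of 12453 and 12066. Of these 4, 1 was 1.5-fold higher and 0 lower, with a median of 0.32. Cidea, a lipid droplet protein, had 410 and 547 (0.91), while Pparg (0.50) and Cpt1b (0.14) were under 1.5-fold. Most of the summed signal of these 4 came from Cpt1b, at 11116 and 10629, so the sums mainly read that 1 gene. Ucp1, the defining uncoupling protein, had 353 and 263 (-0.40), and Elovl3, Dio2 and Prdm16 were not detected. The part of these cells and fibres in the values of the muscle forms was not tested.

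The promoters of Cox7a1, Cox7a2, Cox8b, Cox8a, Ndufb4 and Ndufa4 are printed for comparison. Those of the other lower complex IV forms, Cox4i2, Cox6b2, Cox6a1 and Cox7a2l, are not printed. The RefSeq windows of build GRCm38.p6 were used, which run from 250 bases before to 50 after the annotated start. Windows were found for 75 of the 91 genes, 80 windows in all, and none for Cox6a2. Motifs were searched on both strands. The core site of NRF1, a regulator of respiratory genes, written GCGCANGCG, was in 23 of the 80 windows (28.8%), against 6.25% of all 32851 windows. The ETS site CCGGAAG was in 25%, against 8.86%, and the YY1 site AAGATGGCG in 8.75%, against 1.40%. The ERR site AAGGTCA was in 8.75%, against 4.72%, and the E-box CAGCTG in 6.25%, against 16.3%. A MEF2 box and the androgen and glucocorticoid element were each in 0 of the 80, against 0.557% and 0.475% of all windows. All windows include those of noncoding genes, and NRF1 and ETS sites hold CG pairs, so base composition is shared with the count. A match is a run of letters and not a shown binding site.

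Capitals mark the matches in the windows below, given 5′ to 3′ on the strand of the gene. The Cox7a1 window is at chr7:30183921-30184220 on the plus strand and the Cox7a2 window at chr9:79759804-79760103 on the minus strand, and neither held any of the 7 motifs. The Cox8b window, chr7:140900397-140900696 on the minus strand, held 2 E-boxes, and the Cox8a window, chr19:7217567-7217866 on the minus strand, 2 ETS sites on the opposite strand. The Ndufb4 window, chr16:37654319-37654618 on the minus strand, held 3 NRF1 sites and 1 ERR site. The Ndufa4 window, chr6:11907401-11907700 on the minus strand, held no match. In these windows no matches of different motifs overlapped, and a window without a match shows only that these letters are not in it.
Cox7a1: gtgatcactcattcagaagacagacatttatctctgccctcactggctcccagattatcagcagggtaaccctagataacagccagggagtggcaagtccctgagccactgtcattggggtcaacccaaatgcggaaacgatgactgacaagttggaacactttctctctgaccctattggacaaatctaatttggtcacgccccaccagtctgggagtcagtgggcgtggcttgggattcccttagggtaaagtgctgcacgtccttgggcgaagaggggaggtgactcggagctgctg
Cox7a2: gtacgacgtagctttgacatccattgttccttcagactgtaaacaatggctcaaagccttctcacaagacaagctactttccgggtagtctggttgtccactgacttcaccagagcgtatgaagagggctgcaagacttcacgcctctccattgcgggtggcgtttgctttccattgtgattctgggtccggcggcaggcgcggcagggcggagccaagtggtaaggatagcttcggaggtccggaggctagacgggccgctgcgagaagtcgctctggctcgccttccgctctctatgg
Cox8b: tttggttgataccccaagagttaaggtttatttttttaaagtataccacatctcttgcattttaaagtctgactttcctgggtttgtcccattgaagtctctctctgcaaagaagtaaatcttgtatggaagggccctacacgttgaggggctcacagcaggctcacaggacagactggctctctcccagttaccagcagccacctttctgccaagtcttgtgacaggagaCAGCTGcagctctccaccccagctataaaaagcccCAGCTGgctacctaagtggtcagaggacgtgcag
Cox8a: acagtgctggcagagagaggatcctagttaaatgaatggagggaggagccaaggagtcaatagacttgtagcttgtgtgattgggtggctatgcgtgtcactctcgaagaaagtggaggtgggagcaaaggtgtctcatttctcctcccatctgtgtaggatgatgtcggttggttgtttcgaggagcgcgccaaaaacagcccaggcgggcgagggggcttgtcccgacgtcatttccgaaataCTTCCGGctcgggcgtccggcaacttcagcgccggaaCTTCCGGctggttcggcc
Ndufb4: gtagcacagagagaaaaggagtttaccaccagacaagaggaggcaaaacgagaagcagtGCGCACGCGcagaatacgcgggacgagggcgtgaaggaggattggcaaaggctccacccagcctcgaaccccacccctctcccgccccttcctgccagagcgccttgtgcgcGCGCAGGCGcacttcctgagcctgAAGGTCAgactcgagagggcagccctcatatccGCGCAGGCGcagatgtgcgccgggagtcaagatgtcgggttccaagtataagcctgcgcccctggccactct
Ndufa4: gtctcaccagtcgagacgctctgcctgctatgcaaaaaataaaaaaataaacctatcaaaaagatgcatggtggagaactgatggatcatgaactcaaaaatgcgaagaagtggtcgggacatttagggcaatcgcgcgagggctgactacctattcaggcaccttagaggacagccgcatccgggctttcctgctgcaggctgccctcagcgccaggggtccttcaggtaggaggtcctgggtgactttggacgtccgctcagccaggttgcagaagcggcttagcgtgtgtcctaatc

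ATP synthase subunits were nearly level between the arrays. All 16 on the array were detected, with a median of 0.02, 13 of them within the probe SD, and 1 was 1.5-fold higher and 0 lower. That is 6.25% higher, where 13.4% of all genes were higher and 15.8% lower. Both arrays read 5 of the 16 above 40000, a range in which 4.55% and 1.52% of all genes passed. In the catalytic head the beta subunit, Atp5b, had signals of 68339 and 68820 (0.03), the alpha subunit, Atp5a1, 14376 and 12449 (0.02), and the gamma subunit in the central stalk, Atp5c1, 39411 and 38105 (0.08). The 5 head genes ran from 0.02 to 0.17.

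The 3 genes for the same ring subunit c, Atp5g1 (53443 and 53128, 0.02), Atp5g2 (9588 and 8226, -0.03) and Atp5g3 (69351 and 68202, -0.01), did not separate as the complex IV forms did. Of these, Atp5g1 and Atp5g3 were above 40000 on both arrays. In the peripheral stalk Atp5pb, subunit b, had 8458 and 8863 (0.27), while Atp5h, subunit d, had 16993 and 12949 (-0.21). Atp5o, the oligomycin sensitivity protein, had the lowest difference of the enzyme, at 634 and 455 (-0.30), and was lower under every setting tried. Among the small membrane subunits Atp5k had 246 and 269 (0.61), a difference of 0.30 without background correction. Atp5l had 2633 and 1902 (-0.24), and Atp5mpl 64200 and 54831 (-0.17).

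Assembly factors build the complexes without staying in them, and the 9 named Ndufaf or Sdhaf did not move as a group. All 9 were detected, with a median of 0.01, against 0.08 for the 75 detected subunits of complexes I to V. The 33 other detected assembly and regulatory factors given below had a median of 0.17, with 24 above 0 (72.7%, where 49.4% of all genes were). The order against the subunits therefore depends on the set. Ndufaf5, which modifies the core subunit Ndufs7, had 1868 and 2381 (0.63), and its second probe read 0.53. Sdhaf3, which guards the iron-sulfur subunit Sdhb during assembly, had 1105 and 1348 (0.62), while Sdhaf4, which helps the flavoprotein of complex II into place, had 5386 and 3515 (-0.42). Sdhaf1 (-0.02) and Sdhaf2 (-0.14), Ndufaf1 (-0.03), Ndufaf3 (0.01) and Ndufaf4 (0.10) lay within the probe SD, and Ndufaf7 was at 0.29. Beyond the probe SD, complex II factors lay on both sides of 0 and complex I factors only above it.

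Other genes of the pathway were read from lists. Of 36 further assembly and regulatory factors on the array, 33 were detected, with 6 at 1.5-fold higher (18.2%, where 13.4% of all genes were), 1 lower and a median of 0.17. Without background correction Cox10 alone of the 6 stayed past 1.5-fold, and the other folds ran from 1.23 for Lyrm7 to 1.48 for Acad9. Cox10, which makes the haem precursor of complex IV, had 4164 and 5964 (0.76), Acad9, a complex I assembly protein, 741 and 908 (0.67), and Atpaf2, which helps build the ATP synthase head, 697 and 836 (0.62). Coa7 (0.80) and Higd1a (0.73) were dim, under 300 on both arrays. Lyrm7 was detected on the DHT array alone, with a bound of 1.07-fold. Atpif1, which inhibits ATP synthase when it runs in reverse, was the lower gene, at 14257 and 6572 (-0.93, 1.91-fold lower).

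Of 10 detected coenzyme Q genes, Coq10b, a coenzyme Q binding protein, had 764 and 1226 (1.09) and Coq8a 292 and 337 (0.69, 1.33-fold without background correction). The other 8 were under 1.5-fold. Of 17 detected regulators 3 were higher (17.6%, where 13.4% of all genes were) and 0 lower: the coactivator Ppargc1a (803 and 994, 0.68), Perm1, a muscle regulator of oxidative genes (5439 and 7674, 0.70), and the mitochondrial DNA helicase Twnk (239 and 266, 0.68). Without background correction Perm1 alone stayed past 1.5-fold, with Ppargc1a at 1.49-fold and Twnk at 1.26-fold. Esrra (0.54), Nrf1 (0.07), Gabpa (-0.27) and Tfam (-0.19), which act on respiratory genes or mitochondrial DNA, were under 1.5-fold.

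Genes that hand the energy on gave both directions. Of 10 detected on that list, 2 were 1.5-fold higher and 1 lower, where 13.4% and 15.8% of all genes were. Of the 10, 6 had a difference above 0 and 4 below. The mitochondrial creatine kinase Ckmt2 had 25692 and 37810 (0.71), and the outer membrane channel Vdac3 8934 and 12208 (0.67). Myoglobin, Mb, which stores oxygen for the chain and is read among the muscle markers and not on that list, had 22480 and 33331 (0.75). Ucp3, a carrier that follows fatty acid supply, had 783 after vehicle and 179 after DHT, where it was not well above background. It was at least 10.1-fold lower on the background-corrected scale, a bound that does not hold for the uncorrected fold of 3.86. Under 1.5-fold, Slc25a5, the ADP/ATP carrier form of most tissues, had 15465 and 10029 (-0.44) and Vdac2 8841 and 5376 (-0.52). Ak1, at 13766 and 18024 (0.58), and Slc25a3, at 23769 and 26241 (0.30), went the other way.

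Signals near the top of the scale set a limit on these readings. Of the 114 probes, 17 were above 40000 on both arrays, which is 25% of the 68 such probes on the array. Another 2, those of Cox7c and Uqcr11, were above it on the vehicle array alone and 1, that of Ndufa4, on the DHT array alone. The 16 genes above 40000 on both arrays had a median of 0.01 and ran from -0.17 to 0.27, with 0 past 1.5-fold in either direction. Of all 66 genes with a mean signal above 40000, 4.55% were higher and 1.52% lower. The 67 genes above it on neither array had a median of 0.12 and ran from -1.29 to 0.71. Complex IV was the group most affected: without its probes above 40000 on either array its median went from -0.04 over 17 genes to -0.42 over 9, Cox6b1 then being read by its dimmer probe.

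**Figure D3:**
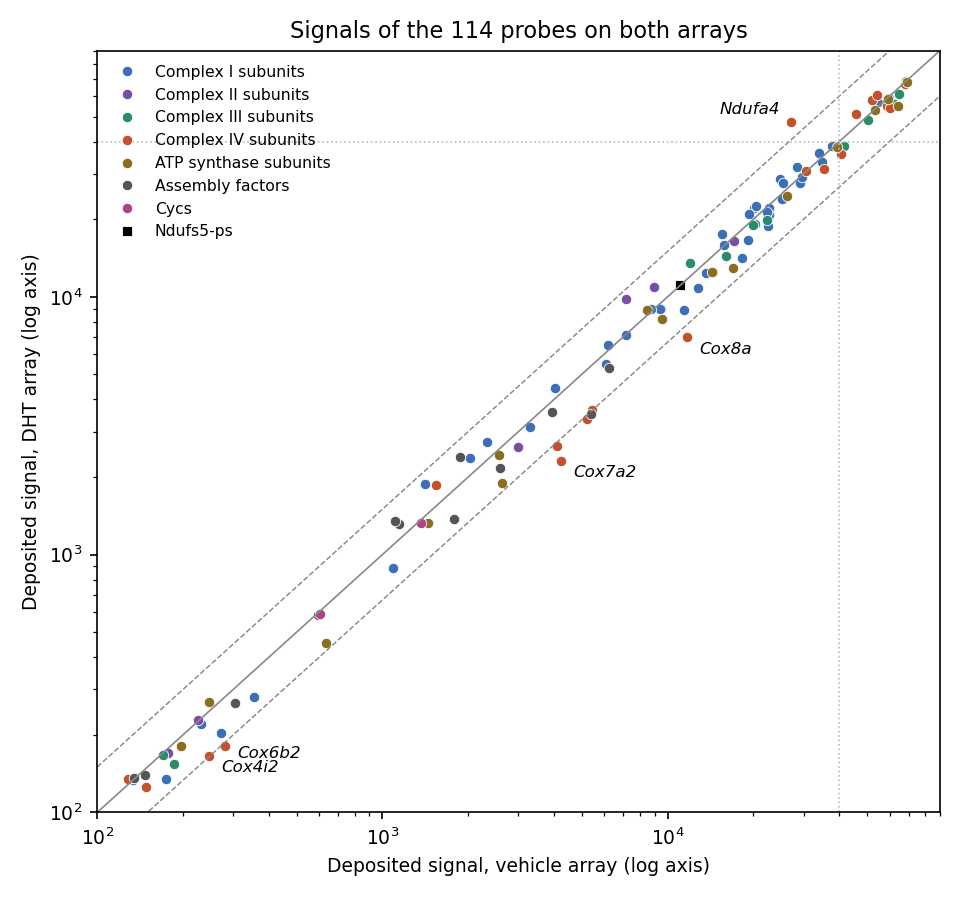
Deposited signal of each of the 114 probes on the DHT array against the vehicle array, both on log axes, coloured by complex. The solid line is equality, dashed lines are 1.5-fold in raw signal and dotted lines mark 40000. Most probes follow the line, Ndufa4 lies above it at 27048 and 47449, and Cox7a2 and Cox8a lie below it.

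Related gene groups were set beside the respiratory chain genes, whose median was 0.09, where that of all detected named genes was -0.01. The 70 detected mitochondrial ribosomal protein genes had a median of 0.13, with 3 higher (4.29%) and 1 lower (1.43%) at 1.5-fold. The 17 citric acid cycle enzymes had a median of 0.20, with 3 higher (17.6%) and 0 lower. Of all genes 13.4% were higher and 15.8% lower. The 56 detected cytosolic ribosomal protein genes had a median of -0.21, with 51 below 0, where 4452 of all 8815 genes were. Of the 86 respiratory chain genes 24 were below 0, with 4 of 32 in complex I and 9 of 17 in complex IV. These are descriptions of 2 arrays, and the differences between the groups were not tested.

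**Figure D4:**
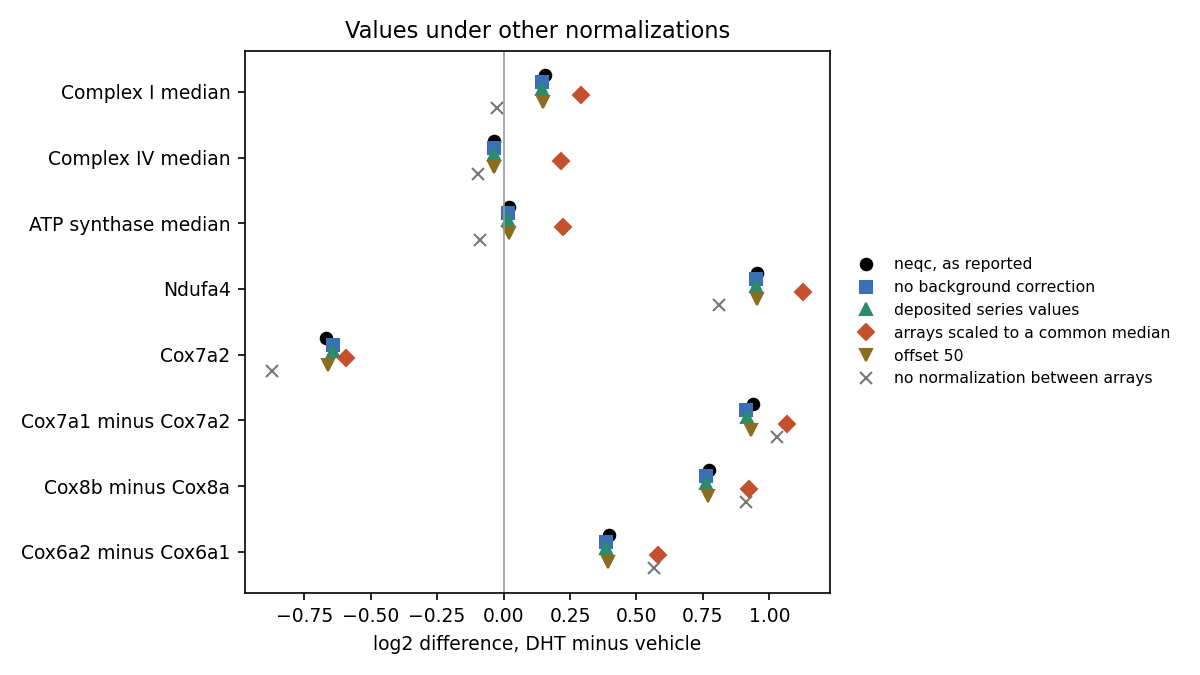
Log2 difference, DHT minus vehicle, of 3 group medians, 2 genes and 3 gaps between subunit forms (rows) under 6 normalizations (symbols), from 1 array per group. Group medians shift with the scaling and cross 0, while Ndufa4 stays between 0.81 and 1.13, Cox7a2 stays below 0 and the gaps stay above 0.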

How the data were processed

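Illumina bead arrays were hybridised with biotin-labelled cRNA made from 0.55 µg of total RNA, per the labels' protocols. The deposited signal intensity is linear, not normalized and not background-subtracted, as its values show, and the detection p-value beside it was deposited by the authors. The deposited log2 series values, with the same sorted values in both columns (median 7.43), matched quantile-normalized log2 signals to 0.000654, with no gene centring. GenomeStudio 2011.1 is named, per the submitters' processing notes. Its role was not given in the sources used here, nor was a build.

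Genes were named through the platform annotation, which can be old: 23978 probes had 1 symbol, 1719 none and 0 several. All 86 detected members matched a mouse gene table of GRCm38.p6 by Entrez identifier. Signals were background-corrected from the detection p-values with an offset of 16. They were then quantile normalized to log2 values by the neqc function of limma 3.58.1 in R 4.3.3. Simulated data tested this step for changes in probes of middle signal. Changes near background or above 40000, and arrays that differ in total brightness, were not simulated. Each gene was read by its probe with the highest mean among those with a detection p under 0.01 on at least 1 array. Of all probes, 11949 were detected after vehicle and 11734 after DHT. Folds divide the brighter by the dimmer array. Where 1 array did not detect the gene, the fold is a bound against the higher of the lowest detected signal there and its own. With 1 array per group no test was made, and the number of arrays limits the precision. Respiratory genes have many processed pseudogenes that probes may bind, which was not tested. Named genes were those past 1.5-fold, the extremes of each complex, the forms of paired subunits, core and catalytic subunits, genes with disagreeing probes and genes above 40000 on 1 array. Others are named to complete a group or a probe count. The members and lists were chosen with earlier results of these data known. The tables and figures come from Python 3.11.15, pandas 2.3.3 and matplotlib 3.10.9.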

Additional observations from a re-analysis of the deposited data

How the results depend on the processing

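The 13 main values (the group medians, the 2 counts at 1.5-fold and the 4 gaps between subunit forms) were recomputed under 10 alternatives, of which the place of Ndufa4 bears on complexes I and IV alone, and under 1 chosen after seeing the data, the signals with no normalization between arrays. Of 127 values so obtained, 116 moved by less than the probe SD, or by no more than 1.5 times for counts. That number is no measure of robustness. The probe SD of 0.26 exceeds each group median, so a median could change sign and not count as moved. The deposited series values also nearly repeat the setting without background correction. Without background correction the counts were 3 higher and 1 lower, against 5 and 3, and the same held for the deposited series values. With no normalization they were 1 and 5, where 3.2% and 16.8% of all genes were called. The fitted gap between Cox4i2, not well above background after DHT, and Cox4i1, above 40000 on both arrays, is no exact size. It was -1.33, and -0.50 without background correction and in the deposited series values, -0.90 with an offset of 50 and -0.56 with no normalization. Both Cox4i2 signals lie near background. The complex IV median was -0.42 without probes above 40000, which leaves out 8 of its 17 genes. Group medians changed sign with the scaling: complex IV reached 0.22 with the arrays scaled to a common median, and complexes I, II and III, ATP synthase and the assembly factors were below 0 with no normalization. The dim genes Atp5k, Cox4i2 and Cox6b2 depend on the background correction. No paired analysis was possible because each group has 1 array.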
